A study of Mus musculus with 7 samples.

Results

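The Ikaros zinc finger family holds 5 genes in the mouse, and its members were taken as the rows of the deposited expression table that carry the names Ikzf1, Ikzf2, Ikzf3, Ikzf4 and Ikzf5. All 5 names were found, among 24341 genes in the table. The RNA came from splenic B-cell precursors (BCP) of Eμ-Ret mice. These mice carry a hemizygous Ret fusion transgene driven by the immunoglobulin heavy chain enhancer on a BALB/c background. The 3 leukemic samples came from older, moribund mice with overt disease. The 4 preleukemic samples came from young mice that were still healthy. Since the diseased mice were the older ones, age and disease state cannot be told apart between the groups. Every animal carried the transgene and no transgene-negative cells were compared here, so no effect of the transgene itself can be read from these samples. The paper describes sorting of preleukemic BCP by surface markers that include BP-1, the protein encoded by Enpep. For its culture experiments, it states that leukemic spleen cells were in most cases not enriched. Its RNA methods do not state whether the leukemic samples were sorted. The part of any difference in purity between the groups was not tested. The amount of Enpep RNA differed among the samples (given below with Ikzf3).

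The Ikaros family proteins are transcription factors of lymphocytes. A cluster of zinc fingers near the N-terminus binds DNA, and a pair near the C-terminus holds the proteins together as dimers of the same or of different members. Ikaros, from Ikzf1, is needed for lymphoid development and is a frequent target of deletion in human B-cell acute lymphoblastic leukemia. Aiolos, from Ikzf3, rises as B-cell precursors pass the pre-B cell receptor stage and acts with Ikaros to stop their division. Helios, from Ikzf2, and Eos, from Ikzf4, are best known from T cells, above all regulatory T cells. Pegasus, from Ikzf5, is the most divergent and most widely expressed member.

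In the fingers compared here, Ikzf5 differs from Ikzf1 more in the region that reads DNA than in the region that joins the proteins. A stretch from each region is shown. Sequences are coding strands of GENCODE transcripts on GRCm38, 5′ to 3′, and the capitals mark the codons of the paired cysteines and paired histidines that hold the zinc ion. The finger numbered 2 from the N-terminus lies in exon 5 of Ikzf1 at chr11:11754024-11754086 (plus strand), in exon 5 of Ikzf2 at chr1:69570581-69570643, in exon 5 of Ikzf3 at chr11:98488940-98489002, in exon 5 of Ikzf4 at chr10:128640229-128640291 and in exon 4 of Ikzf5 at chr7:131392501-131392563 (all minus strand).
Ikzf1 finger 2: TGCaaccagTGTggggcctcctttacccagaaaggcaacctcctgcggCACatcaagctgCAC
Ikzf2 finger 2: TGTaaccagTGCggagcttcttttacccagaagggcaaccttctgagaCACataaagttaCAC
Ikzf3 finger 2: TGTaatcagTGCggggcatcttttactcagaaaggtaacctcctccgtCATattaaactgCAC
Ikzf4 finger 2: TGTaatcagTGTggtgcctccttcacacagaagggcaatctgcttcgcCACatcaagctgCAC
Ikzf5 finger 2: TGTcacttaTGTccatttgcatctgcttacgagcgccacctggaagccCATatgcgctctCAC
Over these 63 bases, Ikzf4 differed from Ikzf1 at 10 positions and Ikzf2 and Ikzf3 at 12 each. Ikzf5 differed at 37 positions. Fingers were paired by number, and whether finger 2 of Ikzf5 is the counterpart of finger 2 of Ikzf1 was not tested. The finger of 66 bases is number 3 in Ikzf5 and number 4 in Ikzf1.

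The last finger but 1, the first of the C-terminal pair, is shown for 3 members, at chr11:11769411-11769473 in exon 8 of Ikzf1, chr1:69538870-69538932 in exon 8 of Ikzf2 and chr7:131391739-131391801 in exon 4 of Ikzf5.
Ikzf1 finger 5: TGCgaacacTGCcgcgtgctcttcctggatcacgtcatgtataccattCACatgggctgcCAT
Ikzf2 finger 5: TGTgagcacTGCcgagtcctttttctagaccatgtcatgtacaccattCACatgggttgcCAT
Ikzf5 finger 4: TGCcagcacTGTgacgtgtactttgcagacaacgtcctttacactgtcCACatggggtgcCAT
Here Ikzf5 differed from Ikzf1 at 20 of 63 positions, against 11 for Ikzf2. The fingers were found by an in-frame search for the classical zinc finger pattern of cysteine and histidine codons, which matched 6 times each in Ikzf1, Ikzf2 and Ikzf4 and 5 times each in Ikzf3 and Ikzf5. A finger of another spacing would not have been matched. The longest run of identical bases between any pair of the 5 transcripts was 15 to 32 bases, with 26 bases between Ikzf1 and Ikzf3.

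Levels are given as FPKM, the fragments per kilobase of transcript, scaled to the mapped fragments of each library, that were deposited for each gene and sample, so that genes of different length can be set side by side. The value is 1 per gene, and the spliced forms of Ikzf1 and Ikzf3 that lack DNA-binding fingers are not separated in it. The low values of the table corresponded to depths of about 13630000 to 16200000 fragments per sample. A gene entered the test if its 7 FPKM values added up to 10 or more, which held for 10541 genes. Among the members, Ikzf1, Ikzf3 and Ikzf5 passed this filter, while Ikzf2 and Ikzf4 fell under it. Differences between the groups were tested with limma on log2(FPKM + 1), with p adjusted over all genes tested, and an adjusted p under 0.05 was counted as a call. Fold changes on that scale understate the change of low genes.

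None of the 3 members tested with limma was called between leukemic and preleukemic BCP, against 14.7% of all genes tested. Ikzf1 was by far the most abundant member in each of the 7 samples and made up most of the family RNA. Ikzf3 had the highest ratio of largest to smallest value between leukemic samples, from a level within the preleukemic range to a level far below it. Ikzf5 was nearly the same in all samples. Ikzf2 and Ikzf4 were at a trace. In bulk cells, fewer cells of a type and less RNA per cell cannot be told apart.

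**Figure D1:**
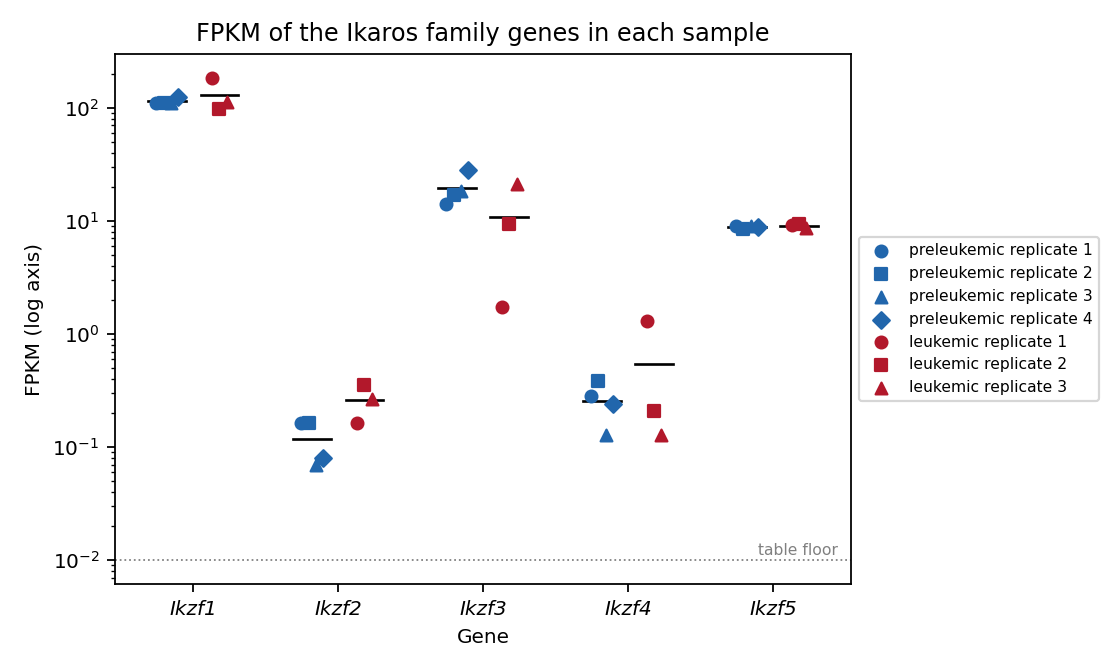
FPKM of the 5 Ikaros family genes (log axis) in 4 preleukemic (blue) and 3 leukemic (red) samples; each point is 1 sample, the marker gives the replicate number and the bar the group mean. Ikzf1 lay at 97.7 to 183 in every sample, Ikzf5 at 8.51 to 9.33, and leukemic replicate 1 had the lowest Ikzf3 value (1.73) and the highest Ikzf1 (183) and Ikzf4 (1.30) values.

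Ikzf1, at chr11:11685925-11772926 on the plus strand, measured 110, 111, 111 and 125 FPKM in preleukemic replicates 1 to 4. In leukemic replicates 1 to 3 it measured 183, 97.7 and 112 FPKM. Leukemic replicate 1 was thus above, and leukemic replicate 2 below, every preleukemic sample, while leukemic replicate 3 sat among them, so the groups overlapped. The mean was 131 ± 45.6 FPKM (SD, n = 3) in leukemic and 114 ± 7.17 FPKM (SD, n = 4) in preleukemic samples. The log2 fold change, leukemic over preleukemic, was 0.14 (SE 0.20, 95% interval -0.33 to 0.61), and limma gave an adjusted p of 0.646. Without leukemic replicate 1 the log2 fold change was -0.13, and with each sample scaled to a common total it was -0.02, so no direction can be given for Ikzf1. The 6 other samples lay within a narrow band, and leukemic replicate 1 exceeded the highest of them by 0.54 on the log2 scale. An excess that large in this sample was seen for 3.26% of the genes tested. By mean level Ikzf1 stood above 94.0% of all genes tested.

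Ikzf3, on the minus strand at chr11:98464693-98546031, measured 14.0, 16.8, 18.5 and 28.2 FPKM in preleukemic replicates 1 to 4. It measured 1.73, 9.39 and 21.3 FPKM in leukemic replicates 1 to 3. Leukemic replicates 1 and 2 were below every preleukemic sample, and leukemic replicate 3 was above 3 of the 4. The largest leukemic value was 12.4 times the smallest, against 2.01 times among preleukemic samples. At the depth of leukemic replicate 1, its Ikzf3 level corresponded to about 91.6 fragments, which counting alone would leave uncertain by 10.4%, and how far this level would vary between animals is not given by that error. Group means were 10.8 ± 9.89 FPKM (SD, n = 3) in leukemic and 19.4 ± 6.17 FPKM (SD, n = 4) in preleukemic samples. The log2 fold change was -1.20 (SE 0.64, 95% interval -2.71 to 0.31), with an adjusted p of 0.227 in limma. It remained below 0 under each alternative tried, at -0.38 (adjusted p = 0.513, limma) without leukemic replicate 1 and -1.89 (adjusted p = 0.0637, limma) without leukemic replicate 3.

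The spread of Ikzf3 among samples was wide for any gene. Its leukemic SD on the log2 scale was 1.54, and 98.5% of the genes tested had a smaller one. Among preleukemic samples the SD was 0.41, with a smaller value in 94.0% of the genes tested. In leukemic replicate 1, Ikzf3 fell short of the lowest of the other 6 samples by 1.93 on the log2 scale, a shortfall reached there by 0.36% of the genes tested. That library was often at an extreme, since it was the lowest of the 7 samples for 26.8% and the highest for 26.1% of the genes tested. It also held the least Enpep RNA, which measured 19.1, 102 and 77.2 FPKM in leukemic replicates 1 to 3 and 134 to 210 FPKM in preleukemic samples. The summed FPKM of 11 B-lineage and sort markers was likewise lowest there, at 3058, against 4819 and 3792 in the other leukemic samples and 5788 to 7291 in the preleukemic samples. The part of these differences in the Ikzf3 result was not tested.

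Ikzf5, at chr7:131388649-131410478 on the minus strand, measured 8.94, 8.51, 8.94 and 8.82 FPKM in preleukemic replicates 1 to 4. In leukemic replicates 1 to 3 it measured 9.29, 9.33 and 8.63 FPKM. All 7 values were thus close together, and the groups overlapped. Its means were 9.08 ± 0.393 FPKM (SD, n = 3) in leukemic and 8.80 ± 0.205 FPKM (SD, n = 4) in preleukemic samples. The log2 fold change was 0.04 (SE 0.08, 95% interval -0.14 to 0.22), with an adjusted p of 0.740 in limma. It was -0.11 with each sample scaled to a common total. In preleukemic samples only 1.80% of the genes tested had a smaller SD than Ikzf5 on the log2 scale, and in leukemic samples 6.70% did.

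Ikzf2, at chr1:69531210-69685960 on the minus strand, measured 0.162, 0.164, 0.0702 and 0.0794 FPKM in preleukemic replicates 1 to 4. It measured 0.163, 0.357 and 0.269 FPKM in leukemic replicates 1 to 3. Leukemic replicates 2 and 3 were above every preleukemic sample, while leukemic replicate 1 was level with preleukemic replicates 1 and 2. These levels corresponded to between 8.78 and 50.3 fragments per sample, with counting errors of 14.1% to 33.7%. Ikzf2 was under the filter, and an exact two-sided permutation test of the difference in means on the log2 scale gave p = 0.0571, where the smallest p that 3 against 4 samples allow is 0.0286. With no filter on low values, the log2 difference was 0.17 (adjusted p = 0.116, limma), where 10.3% of genes were called. The summed FPKM of 12 T and NK cell markers was 13.1, 70.5 and 24.0 in leukemic replicates 1 to 3 and 15.6 to 21.8 in preleukemic samples. Of the 7 such markers tested, 0 were called, against 14.7% of all genes tested. Of these 7, 4 were highest in leukemic replicate 2, namely Cd3e, Cd3g, Nkg7 and Gzma, and the last pair made up 46.4 of its 70.5 FPKM. Cd3d was highest in preleukemic replicate 2, Cd4 in leukemic replicate 1 and Klrb1c in preleukemic replicate 4. Cd3e, a chain of the T-cell receptor complex, lay at 0.646 to 3.07 FPKM and Foxp3, which defines regulatory T cells, at 0.101 to 0.382 FPKM over the 7 samples. The part of T and NK cell RNA in the Ikzf2 values was not tested.

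Ikzf4, at chr10:128632415-128645993 on the minus strand, measured 0.281, 0.385, 0.128 and 0.239 FPKM in preleukemic replicates 1 to 4. In leukemic replicates 1 to 3 it measured 1.30, 0.210 and 0.128 FPKM. A single sample, leukemic replicate 1, was thus above the rest, at about 98.4 fragments against 8.73 to 27.8 in the other samples. The exact two-sided permutation test gave p = 0.657, and without that sample the log2 difference was -0.10 in place of 0.22.

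The order of the members was almost the same in each sample. Ikzf1 exceeded Ikzf3 in 7 of 7 samples, by 4.43 to 106 times. Ikzf3 exceeded Ikzf5 in 6 of 7 samples, but in leukemic replicate 2 the values were 9.39 and 9.33 FPKM and differed by less than counting error. In leukemic replicate 1 the order of Ikzf3 and Ikzf5 was the opposite, with a ratio of 0.186. Ikzf5 exceeded Ikzf4 by at least 7.17 times and Ikzf2 by at least 26.1 times in every sample. Ikzf4 exceeded Ikzf2 in 5 of 7 samples, the exceptions being leukemic replicates 2 and 3, and these neighbours in the order differ by no more than their spread.

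As a share of the summed FPKM of the family, Ikzf1 contributed 82.5%, 81.1%, 80.0% and 77.0% in preleukemic replicates 1 to 4 and 93.6%, 83.5% and 78.6% in leukemic replicates 1 to 3. Ikzf3 contributed 10.5% to 17.4% in preleukemic samples and 0.885%, 8.03% and 15.0% in leukemic replicates 1 to 3. The ratio of Ikzf1 to Ikzf3 was 4.43 to 7.85 in preleukemic samples. In the leukemic samples it was 106, 10.4 and 5.23, so that only leukemic replicate 3 fell within the preleukemic range. These shares give RNA and not protein.

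**Figure D2:**
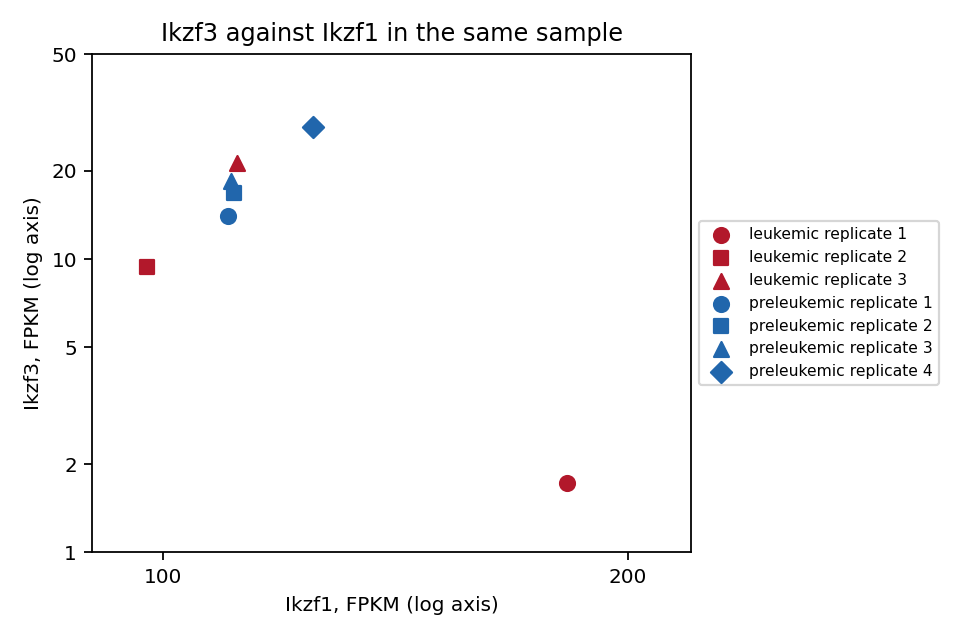
FPKM of Ikzf3 against FPKM of Ikzf1 in the same sample, both on log axes, with 1 point per sample (blue preleukemic, red leukemic, marker by replicate). Leukemic replicate 1 stands alone at 183 FPKM of Ikzf1 and 1.73 FPKM of Ikzf3, while in the other 6 samples Ikzf1 ran from 97.7 to 125 and Ikzf3 from 9.39 to 28.2.

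Genes whose pattern over the 7 samples was most like each member were listed by Pearson's r of log2(FPKM + 1), as a description. The genes nearest to Ikzf1 were Tmem91 (r = 0.99), Casz1 (r = 0.98) and Polr2b (r = 0.98). Each of these was highest in leukemic replicate 1, where Tmem91 measured 54.6 FPKM against 1.34 to 5.64 in the other samples, and without that sample the r values were 0.89, 0.87 and 0.86 over 6 samples. The genes nearest to Ikzf3 were Slc15a3 (r = 0.99), which encodes a peptide and histidine transporter, Ralgds (r = 0.99), which encodes an exchange factor for Ral proteins, and Dok3 (r = 0.99), an adaptor that dampens B-cell receptor signals. Dok3 measured 21.4, 52.1 and 87.9 FPKM in leukemic replicates 1 to 3 and 78.4 to 117 FPKM in preleukemic samples. Over the 6 samples without leukemic replicate 1, these r values were 0.97, 0.93 and 0.92. The genes nearest to Ikzf5 were Mrpl40 (r = 0.99), of the mitochondrial ribosome, Ccdc51 (r = 0.99) and Lrrc1 (r = 0.98). None of these 9 genes was called in limma, against 14.7% of all genes tested. They were picked by likeness to members that were not called, so this count is no separate result.

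Ikaros represses and activates genes through chromatin complexes, above all NuRD, which joins the Chd4 nucleosome remodeler to histone deacetylases. Of 17 genes for NuRD and related co-repressor subunits, 16 were tested, 1 was called lower in leukemic samples and 0 were called higher. Over all genes tested, 6.26% were called lower and 8.47% higher. The median log2 fold change of the 16 genes was 0.09, against -0.02 over all genes tested. Chd4 measured 145, 144 and 164 FPKM in leukemic replicates 1 to 3 and 185, 185, 191 and 195 FPKM in preleukemic replicates 1 to 4, so the groups did not overlap, as they did not for 32.0% of the genes tested. It fell by 0.32 on the log2 scale (SE 0.07, adjusted p = 0.0306, limma). Scaled to the B-lineage genes Cd79a and Cd79b, a setting chosen after the data were seen that moved the median of all genes to 0.41, the log2 fold change of Chd4 was 0.14 (adjusted p = 0.540, limma). The call for Chd4 was lost in 6 of the 7 fits that left out 1 sample, all but the fit without leukemic replicate 3, with adjusted p up to 0.0982 in limma. Mta2 and Ctbp1, the most abundant of the other genes in this list, had log2 fold changes of -0.13 and 0.15 and were not called. Chd3, an alternative remodeler of NuRD singled out here after its values were seen, ranged from 1.39 to 46.0 FPKM among leukemic and from 7.21 to 26.5 FPKM among preleukemic samples. Its widest gap was thus within the leukemic group, with the low value in leukemic replicate 2 and not in the sample with low Ikzf3.

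Ikaros proteins are phosphorylated by casein kinase 2, Syk and Btk, and are dephosphorylated by protein phosphatase 1. In human cells they are degraded after cereblon, a receptor of the CRL4 ubiquitin ligase, is redirected to Ikaros and Aiolos by thalidomide-type drugs. Of 13 genes for these enzymes, all tested, 2 were called higher in leukemic samples and 0 lower, with a median log2 fold change of -0.01. The share called was 15.4%, near the 14.7% of all genes tested. Csnk2b, the regulatory subunit of casein kinase 2, measured 175, 153 and 150 FPKM in leukemic replicates 1 to 3 and 97.6 to 122 FPKM in preleukemic samples. It was higher by 0.55 on the log2 scale (SE 0.10, adjusted p = 0.0175, limma), whereas the catalytic subunits Csnk2a1 and Csnk2a2, named after their values were seen, had log2 fold changes of -0.21 and -0.03 and were not called. Cul4a, the scaffold of CRL4, measured 31.6, 43.4 and 36.6 FPKM in leukemic and 24.1 to 27.6 FPKM in preleukemic samples (log2 fold change 0.52, SE 0.12, adjusted p = 0.0289, limma). Without preleukemic replicate 4, the adjusted p in limma was 0.0650 for Csnk2b and 0.0932 for Cul4a, and the Cul4a call was also lost without leukemic replicate 3 or preleukemic replicate 2 or 3. Scaled to Cd79a and Cd79b, both were called, with log2 fold changes of 1.01 for Csnk2b and 0.97 for Cul4a. That scaling moved the median of all genes tested to 0.41 and called 2392 of 10541 genes higher and 114 lower. Ppp1ca, Ppp1cb and Ddb1, the most abundant genes of the list, were not called, nor was Crbn, which encodes cereblon and is also named after its values were seen. Syk, named after its values were seen, measured 32.1, 65.6 and 92.1 FPKM in leukemic replicates 1 to 3 and 90.5 to 137 FPKM in preleukemic samples (log2 fold change -0.95, adjusted p = 0.0924, limma). Its leukemic values thus had the same order over replicates as those of Ikzf3, lowest in replicate 1 and highest in replicate 3. Among the B-lineage and sort markers, Cd79a, Ebf1, Ptprc, Spn and Rag1 shared that order and the rest did not. A relation of Syk to Ikzf3 was not tested.

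**Figure D3:**
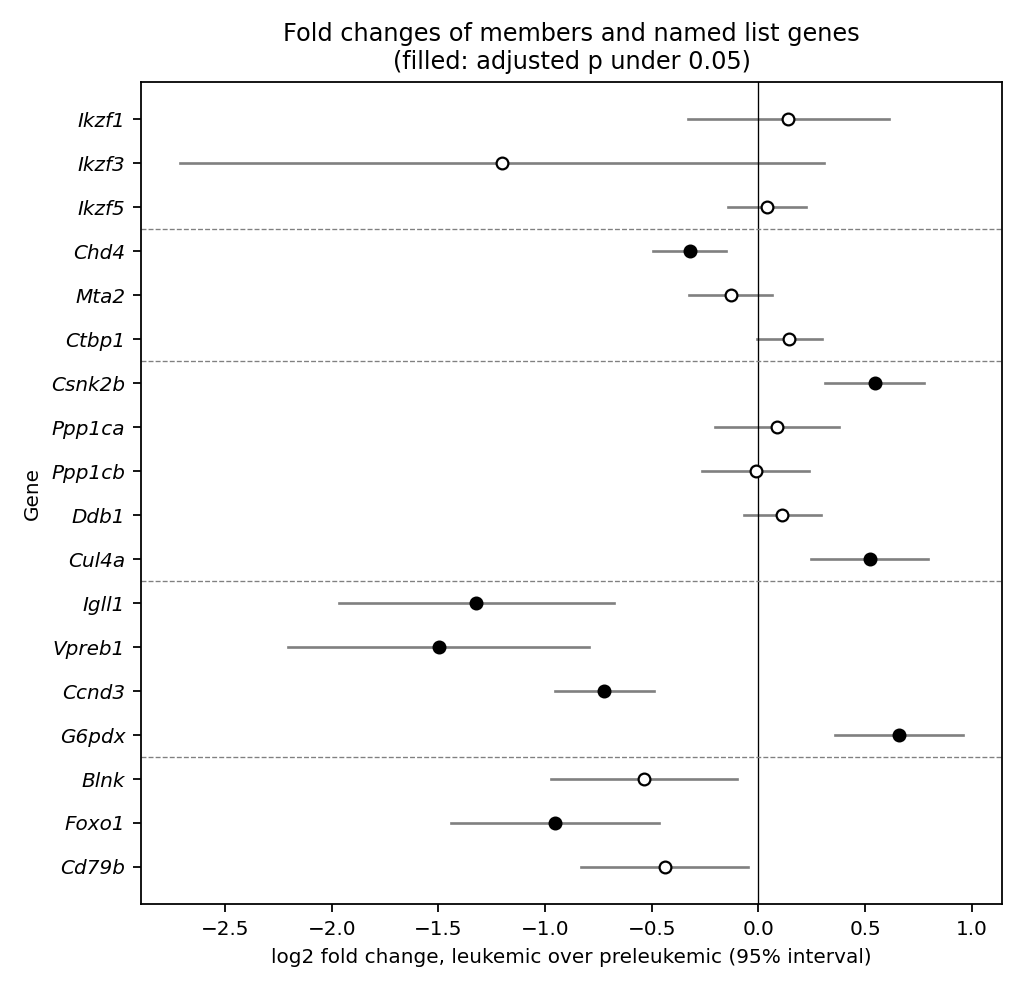
Log2 fold change, leukemic over preleukemic, of the tested Ikaros family genes (top block) and of the named genes in the lists for NuRD and co-repressors, for kinases, phosphatase and CRL4, for genes lowered by Ikaros and for genes raised by Ikaros (blocks below in that order); bars are 95% intervals and filled points passed an adjusted p of 0.05 in limma. The intervals of Ikzf1 (-0.33 to 0.61), Ikzf3 (-2.71 to 0.31) and Ikzf5 (-0.14 to 0.22) all include 0, and that of Ikzf3 is the widest in the plot.

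Genes that Ikaros or Aiolos are known to lower in B-cell precursors include the surrogate light chain genes, cell cycle genes and genes of glucose use. Of 11 such genes, 10 were tested, with 3 called lower and 1 higher in leukemic samples and a median log2 fold change of -0.12. Over all genes tested, 6.26% were called lower and 8.47% higher, with a median of -0.02. Those called lower were Igll1 and Vpreb1, whose products stand in for the immunoglobulin light chain in the pre-B cell receptor, and Ccnd3, which encodes cyclin D3. Vpreb1 measured 399, 913 and 364 FPKM in leukemic replicates 1 to 3 and 1313 to 1625 FPKM in preleukemic samples (log2 fold change -1.50, SE 0.30, adjusted p = 0.0226, limma). Igll1 measured 605, 934 and 373 FPKM in leukemic and 1377 to 1631 FPKM in preleukemic samples (log2 fold change -1.32, SE 0.28, adjusted p = 0.0244, limma). The lowest Igll1 and Vpreb1 levels were in leukemic replicate 3, the leukemic sample with the most Ikzf3, and the highest leukemic levels were in replicate 2. Among preleukemic samples, replicate 4 had the most Ikzf3 (28.2 FPKM) and also the most Igll1 (1631 FPKM) and Vpreb1 (1625 FPKM). A relation of these genes to Ikzf3 was not tested. Vpreb2, a further surrogate light chain gene named after its values were seen, was lowest in leukemic replicate 1, at 16.9 FPKM against 276 and 25.4 FPKM in leukemic replicates 2 and 3 and 278 to 385 FPKM in preleukemic samples (log2 fold change -2.74, adjusted p = 0.0712, limma). Ccnd3 measured 206, 240 and 239 FPKM in leukemic and 329 to 402 FPKM in preleukemic samples (log2 fold change -0.72, SE 0.10, adjusted p = 0.0109, limma), and scaled to Cd79a and Cd79b it was no longer called (log2 fold change -0.26, adjusted p = 0.234, limma). G6pdx, which encodes the first enzyme of the pentose phosphate pathway, was the gene called higher, at 25.1, 22.6 and 24.8 FPKM in leukemic and 13.1 to 18.5 FPKM in preleukemic samples (log2 fold change 0.66, SE 0.13, adjusted p = 0.0210, limma). The Ccnd3 call held in each of the 7 fits that left out 1 sample. Those of Vpreb1, Igll1 and G6pdx were lost without preleukemic replicate 2, 3 or 4, with adjusted p in limma up to 0.0775, 0.0812 and 0.0701, and that of Igll1 also without preleukemic replicate 1. Scaled to Cd79a and Cd79b, the other 3 were still called, with log2 fold changes of -1.04 for Vpreb1, -0.86 for Igll1 and 1.098 for G6pdx. The median of all genes tested was then 0.41, with 2392 genes called higher and 114 lower.

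Genes that Ikaros or Aiolos are known to raise in these cells include the recombinase genes, Foxo1 and components of pre-B cell receptor signaling. All 9 such genes were tested, with 1 called lower and 0 higher, against 6.26% and 8.47% of all genes tested, and 8 of 9 log2 fold changes were below 0 with a median of -0.54. Foxo1, a transcription factor of recombinase expression, measured 57.2, 104 and 98.6 FPKM in leukemic replicates 1 to 3 and 144 to 179 FPKM in preleukemic samples (log2 fold change -0.95, SE 0.21, adjusted p = 0.0277, limma). Its call was lost without preleukemic replicate 2, 3 or 4, with adjusted p up to 0.0889 in limma. Scaled to Cd79a and Cd79b, which moved the median of all genes tested to 0.41, its log2 fold change was -0.50 (adjusted p = 0.0596, limma). Blnk, the adaptor that couples the pre-B cell receptor to its downstream enzymes, had a log2 fold change of -0.54 (adjusted p = 0.0924, limma), and that of Cd79b, a signal chain of the receptor, was -0.44 (adjusted p = 0.114, limma). Scaled to Cd79a and Cd79b, the value for Blnk was -0.08 (adjusted p = 0.758, limma), and none is given for Cd79b, which sets that scale. Rag1 and Rag2, which encode the recombinase and were named after their values were seen, had the lowest leukemic levels in the sample with the least Ikzf3. Rag1 measured 22.9, 53.6 and 113 FPKM in leukemic replicates 1 to 3 and 124 to 165 FPKM in preleukemic samples (log2 fold change -1.52, adjusted p = 0.0668, limma). Rag2 measured 12.5, 47.6 and 37.0 FPKM in leukemic replicates 1 to 3 and 57.4 to 80.6 FPKM in preleukemic samples (log2 fold change -1.29, adjusted p = 0.0727, limma). Of the 9 genes in this list, 6 were lowest of all 7 samples in leukemic replicate 1, where 26.8% of all genes tested were lowest. Of the 10 tested genes that Ikaros or Aiolos lower, 2 were lowest in that sample. Most of the B-lineage and sort markers were lowest there too, among them Cd79a, Ebf1 and Enpep, while Pax5, Cd24a, Vpreb1 and Igll1 were not. Being lowest in that sample was thus not particular to the genes that Ikaros or Aiolos raise.

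**Figure D4:**
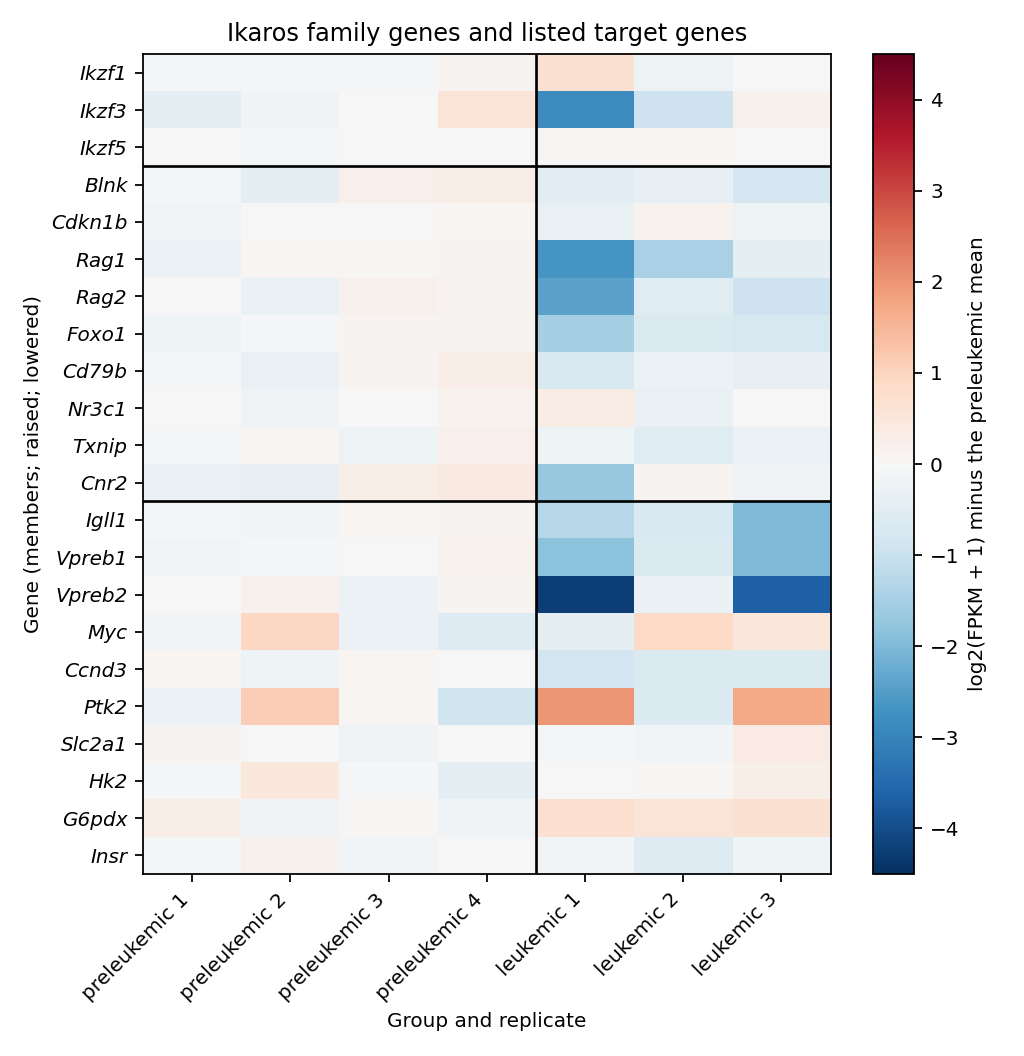
Log2(FPKM + 1) minus the preleukemic mean of the same gene, by sample (columns, preleukemic left and leukemic right), for the tested Ikaros family genes (top), the 9 genes raised by Ikaros or Aiolos (middle) and the 10 tested genes lowered by them (bottom); blue is below and red above the preleukemic mean. In leukemic replicate 1, Ikzf3, Rag1, Rag2 and Foxo1 are all at their lowest, while Vpreb1 and Igll1 are lowest in leukemic replicate 3.

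Cell type markers also differed between the groups. Of 11 B-lineage and sort markers, 4 were called lower in leukemic samples, against 6.26% of all genes tested. Cd24a went the other way and was not called (log2 fold change 0.44, adjusted p = 0.288, limma). The lists overlap in part, since Vpreb1 and Igll1 are also counted above among the genes lowered by Ikaros or Aiolos, and Rag1 and Cd79b among those raised. Among markers of other cells, 14 of 14 tested markers of red cell precursors were called higher, against 8.47% of all genes tested. Red cell markers summed to 5193 to 25655 FPKM in leukemic samples, with the highest sum in replicate 2, and to 239 to 2528 FPKM in preleukemic samples. Macrophage markers (163 to 378 against 36.0 to 88.9 FPKM) and neutrophil markers (1409 to 1746 against 148 to 861 FPKM) were also higher in each leukemic sample than in any preleukemic sample. Markers of stem cells and platelets summed to 15.3 to 55.8 FPKM in leukemic and 0.878 to 4.36 FPKM in preleukemic samples, those of plasma cells to 208 to 254 against 140 to 150 FPKM, and those of dendritic cells to 143 to 267 against 143 to 179 FPKM. Of the 4 plasma cell markers tested, 1 was called higher, against 8.47% of all genes tested. This was Jchain, at a mean of 112 FPKM in leukemic and 20.5 FPKM in preleukemic samples. Sdc1 and Xbp1 were not called, nor was Irf4, which went the other way (log2 fold change -0.31). The part of other cells in the results for Ikzf1, Ikzf3 and their listed target genes was not tested. Taken against Cd79a and Cd79b, the log2 fold changes were 0.60 for Ikzf1 (adjusted p = 0.122, limma), -0.81 for Ikzf3 (adjusted p = 0.229, limma) and 0.46 for Ikzf5 (adjusted p = 0.0914, limma). That scaling moved the median of all genes tested from -0.02 to 0.41. Ikzf5 stayed close to the median, with Ikzf1 above and Ikzf3 below it, at SEs of 0.28 for Ikzf1 and 0.51 for Ikzf3. Cd79b, which helps set the scale, is itself among the listed genes that Ikaros or Aiolos raise.

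The genes within 250 kb of each member were compared to see whether a member moved with its neighbours. Of the 12 genes tested around Ikzf3, 0 were called in limma, against 14.7% of all genes tested (3586 of which had an unadjusted p under 0.05), and the median log2 fold change was -0.30. Grb7, which lies 9.32 kb from Ikzf3 and encodes an adaptor of receptor tyrosine kinases, measured 8.17, 93.1 and 51.5 FPKM in leukemic replicates 1 to 3 and 76.2 to 105 FPKM in preleukemic samples. It was thus lowest, like Ikzf3, in leukemic replicate 1. Nr1d1, 222 kb away, was also lowest there, at 2.93 FPKM against 8.03 to 26.0 in the other samples. Ormdl3, Cdk12, Mien1, Msl1, Stard3 and Casc3 were lowest in that sample too, which makes 8 of the 12 neighbours, where 26.8% of all genes tested were lowest. The margins differed, as Ormdl3 measured 18.9 FPKM against 30.3 to 48.3 in the other samples and Casc3 27.9 FPKM against 28.4 to 33.5. The neighbours not lowest there were Pgap3, Thra, Psmd3 and Med24. Psmd3 measured 97.6 FPKM in leukemic replicate 1 and 89.9 to 101 FPKM elsewhere and Med24 measured 38.4 FPKM and 31.0 to 38.0 FPKM elsewhere.

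Around Ikzf1, the genes Ddc, Fignl1 and Grb10 were tested and 0 were called, against 14.7% of all genes tested. Their log2 fold changes were 0.24, 0.64 and 1.11. Fignl1, 27.4 kb away, was highest in leukemic replicate 1 as was Ikzf1, at 56.6 FPKM against 14.9 to 29.5 in the other samples. Grb10 was also highest there, at 27.4 FPKM against 1.58 to 14.7. Of all genes tested, 26.1% were highest in leukemic replicate 1. Ddc was highest in preleukemic replicate 1, at 47.2 FPKM against 41.3 in leukemic replicate 1. Around Ikzf5, 4 genes were tested and 1 was called, against 14.7% of all genes tested. Acadsb, which encodes an acyl-CoA dehydrogenase and lies 0.123 kb from Ikzf5, measured 5.85, 6.19 and 4.54 FPKM in leukemic replicates 1 to 3 and 7.91 to 9.43 FPKM in preleukemic samples (log2 fold change -0.56, SE 0.12, adjusted p = 0.0278, limma), while Ikzf5 itself did not pass the test. The Acadsb call was lost without any 1 of the preleukemic samples, with adjusted p up to 0.0917 in limma. Around Ikzf4, 22 genes were tested and 3 were called, all higher in leukemic samples. This was 13.6% of them, near the 14.7% of all genes tested. They were the ribosomal protein genes Rps26 (log2 fold change 0.34) and Rpl41 (0.41) and Suox, which encodes sulfite oxidase (1.32). Each of these 3 calls was lost without preleukemic replicate 3 or 4, and that of Rps26 also without leukemic replicate 2 or preleukemic replicate 2. No gene within that distance of Ikzf2 passed the filter.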

How the data were processed

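The study gave 7 stranded mRNA libraries of splenic BCP, 3 leukemic and 4 preleukemic, grouped by their titles. The authors deposited 1 FPKM value per gene and sample, with a floor of 0.01. The submitters' processing notes name mm10, STAR 2.5.0b, Cufflinks 2.2.1, bedtools 2.17.0, Bowtie and DESeq2, and the tool behind the FPKM values is not given in the sources used here. FPKM are not counts, so limma 3.58.1 (R 4.3.3; lmFit and eBayes with a trend, no covariates) was run on log2(FPKM + 1) for genes summing to at least 10, with Benjamini-Hochberg adjustment over 10541 genes. The fit was also tested on simulated data. Tables were made with pandas 2.3.3 and numpy 2.4.6 (Python 3.11.15), and figures with matplotlib 3.10.9.

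Depth was read from the steps of low values in intronless genes, with an assumed fragment length of 200 bases, and the fragment numbers and errors derived from it cover counting only. Any pair of samples had at most 1 identical value over the floor, so all 7 were kept as separate libraries. Table positions start at 0 and were raised by 1 to GRCm38 coordinates. Transcripts and exons are from GENCODE. The promoter table from RefSeq held Ikzf1 and Ikzf5, and no promoter is shown.

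Named were the 5 members, the 3 most abundant and all called genes of each pathway list, the 3 genes with the highest Pearson correlation to each tested member, and the genes tested within 250 kb, of which those around Ikzf4 and Ikzf5 that were not called are not all named. Single cell type markers and other genes outside this rule were named after their values were seen. The members and lists were chosen with earlier results of these data known. Alternatives were a pseudocount of 0.1, no filter, a sum of at least 70, quantile normalization, scaling to a common total, to the median of ratios or to B-lineage genes (as Cd79a and Cd79b alone, a setting chosen after seeing the data), no trend, a replicate block, an exact permutation test (35 possible labelings) and leaving out each sample. Results that need a withheld item are not reported here.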

Additional observations from a re-analysis of the deposited data

Results flagged for a closer look

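Ikzf1 among preleukemic samples stood out, because replicate 4 (125 FPKM) was set apart from replicates 1 to 3 (110 to 111 FPKM) by a gap of 0.93 of the whole range, above Dixon's 95% critical value for 4 samples. The gap is small in size and leukemic replicate 1 lay higher still.

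Of the 75 preleukemic sets of values examined in this way, 6 were set apart, and chance flags about 1 in 20. Preleukemic replicate 2 was low for Ppp1ca (497 FPKM, others 593 to 606), for Ccdc51 (5.27 FPKM, others 7.04 to 7.21) and for Bub3 (78.1 FPKM, others 103 to 105). Preleukemic replicate 1 was low for Dgka (106 FPKM, others 129 to 130) and high for Smarcc2 (46.3 FPKM, others at most 41.0).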

How the results depend on the processing

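Of 53 alternatives for Ikzf1, Ikzf3 and Ikzf5, 0 passed the threshold, 50 kept the direction and 3 reversed it. These include the exact permutation test, which takes the main difference and has no adjusted p. With no filter, a sum of at least 70 or no trend, the fold change is that of the main fit. In those settings the direction could not change. Scaled to a common total, the log2 fold change was -0.024 for Ikzf1 and -0.11 for Ikzf5, and that scaling moved the median of all genes from -0.02 to -0.18. Leaving out 1 sample at a time, Ikzf1 ran from -0.13 (without leukemic replicate 1) to 0.32, Ikzf3 from -1.89 to -0.38 and Ikzf5 from 0.02 to 0.07. The leukemic mean share of Ikzf1 ran from 81.1% to 88.6% and the preleukemic mean share from 79.4% to 81.2%. Ikzf5 could not be fitted with a sum of at least 70. The Ikzf2 difference was 0.72 with a pseudocount of 0.1 in place of 0.17.

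Over all genes 1553 calls (893 higher) became 951 among 7069 genes with a sum of at least 70, 2917 (686 higher) when scaled to a common total, and 149 (without preleukemic replicate 4) to 1620 (without leukemic replicate 2) with 1 sample left out. The split also moved under quantile normalization, to 754 higher of 1661. Without preleukemic replicate 1, 2 or 3 the calls numbered 932, 443 and 271. Calls in the list of NuRD and co-repressors ran from 0 to 1 with 1 sample left out, in that of kinases, phosphatase and CRL4 from 0 to 2, in that of genes lowered by Ikaros from 1 to 5 and in that of genes raised by Ikaros from 0 to 2. The last list had 3 calls under quantile normalization. The cause of these changes was not tested.

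Replicate numbers share no stated litter or day, and same-numbered samples did not deviate together (correlations of 0.03, 0.05 and -0.09). With the replicate block, which left out preleukemic replicate 4, limma made 0 calls over all genes (2416 at an unadjusted p under 0.05) and 0 in each list. Ikzf1 was then at 0.18, Ikzf3 at -1.01 and Ikzf5 at 0.04. The depth of 13630000 to 16200000 fragments limits Ikzf2 and Ikzf4, at under 100 fragments in each sample.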
